A study of Arabidopsis thaliana with 6 samples.

Results

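Fatty acids stored in oil reach the peroxisome and enter beta-oxidation through a short series of proteins, and 9 genes of these steps were followed here, chosen by name and locus out of 19807 listed genes. They were the lipase gene SDP1 (AT5G04040), the transporter gene PXA1 (AT4G39850), the acyl-CoA synthetase genes LACS6 (AT3G05970) and LACS7 (AT5G27600), and the acyl-CoA oxidase genes ACX1 (AT4G16760), ACX2 (AT5G65110), ACX3 (AT1G06290), ACX4 (AT3G51840) and ACX5 (AT2G35690, listed in the deposited table as ACX1.2). All 9 were measured. Messenger RNA came from whole Arabidopsis thaliana seedlings of the Col-0 ecotype, 8 days old, raised under continuous light on a plant nutrient medium. Wild type Col-0 was compared with prp8a-14 (written prp8-14 in the genotype field), a mutant of the splicing factor PRP8A, which sits at the centre of the spliceosome. Each genotype had 3 libraries (wild type replicates 1 to 3, mutant replicates 4 to 6), described as biological replicates in the series design. The sources used here do not say how many seedlings were pooled in a library.

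In a germinating oilseed, SDP1 starts the release of fatty acids from triacylglycerol at the surface of the oil body. PXA1, an ABC transporter of the peroxisomal membrane also known as COMATOSE, carries acyl groups into the peroxisome, and LACS6 and LACS7 join them to coenzyme A there. Acyl-CoA oxidases then make the first double bond of each round of beta-oxidation and release hydrogen peroxide, and the family members differ in the chain length they prefer. The same machinery shortens the precursors of jasmonate, and in older seedlings it continues at a lower level once the oil is spent.

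Counts on all listed genes totalled 49126331 to 63069817 per library, and the 9 genes held 857 to 10545 counts in a library. No pair of libraries of a genotype agreed within sampling noise (chi-square per degree of freedom 8.00 to 15.8). PRP8A was at 389 to 433 CPM (the read count relative to the authors' scaled size of each library) in wild type against 466 to 537 CPM in the mutant, which does not check the labels because a mutation within the gene need not lower its RNA. Tissue markers differed between the genotypes. All 7 green tissue markers rose, with a summed level of 17806 to 18614 CPM in wild type against 25101 to 28896 CPM in prp8a-14. Of 8 root markers measured of 9 listed, 4 fell and 1 rose (175.7 to 193.5 CPM against 159.1 to 171.2 CPM). Of 11 seed markers measured of 15 listed, 8 rose from a low level (6.30 to 10.5 CPM against 14.5 to 26.9 CPM). Over all genes 17.9% rose and 17.3% fell. No measured marker was at 0 in every library, and 2 seed markers were at 0 in at least 1. The part of these shifts in the changes given below was not tested, and in whole seedlings fewer cells of a type and less RNA per cell cannot be told apart.

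The 9 genes moved in both directions, each by at most 1.27-fold. The lipase gene SDP1 and the oxidase genes ACX1, ACX2, ACX4 and ACX5 rose, LACS6, LACS7 and ACX3 fell, and PXA1 was not called. Thus 8 of 9 were called at an adjusted p under 0.05 (88.9%), against 35.2% of all listed genes. Of the 9, 5 rose, against 17.9% of all genes, and 3 fell, against 17.3%. Members were chosen with earlier results of these data known, so these shares describe the list and test nothing. All 9 averaged 5 CPM or more, and in a fit of only the 15760 such genes 6159 were called. The number that rose was 3 without mutant replicate 4 or 5 or without wild type replicate 1 or 3, 3 in limma without trend and 2 with libraries scaled by their totals, while 3 fell in each of these. Libraries of the genotypes did not overlap for 8 of 9, which was also true of 48.1% of all genes. The median log2 change was 0.17, beside 0.0037 over all genes, and the median absolute change was 0.21 beside 0.15. The median of the 9 was 0.10 without mutant replicate 5 and 0.071 with library totals. The largest of these changes, that of LACS7, was exceeded by 22.0% of all genes. The authors' deposited table, from their own fit, also had an adjusted p under 0.05 for 8 of 9.

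**Figure D1:**
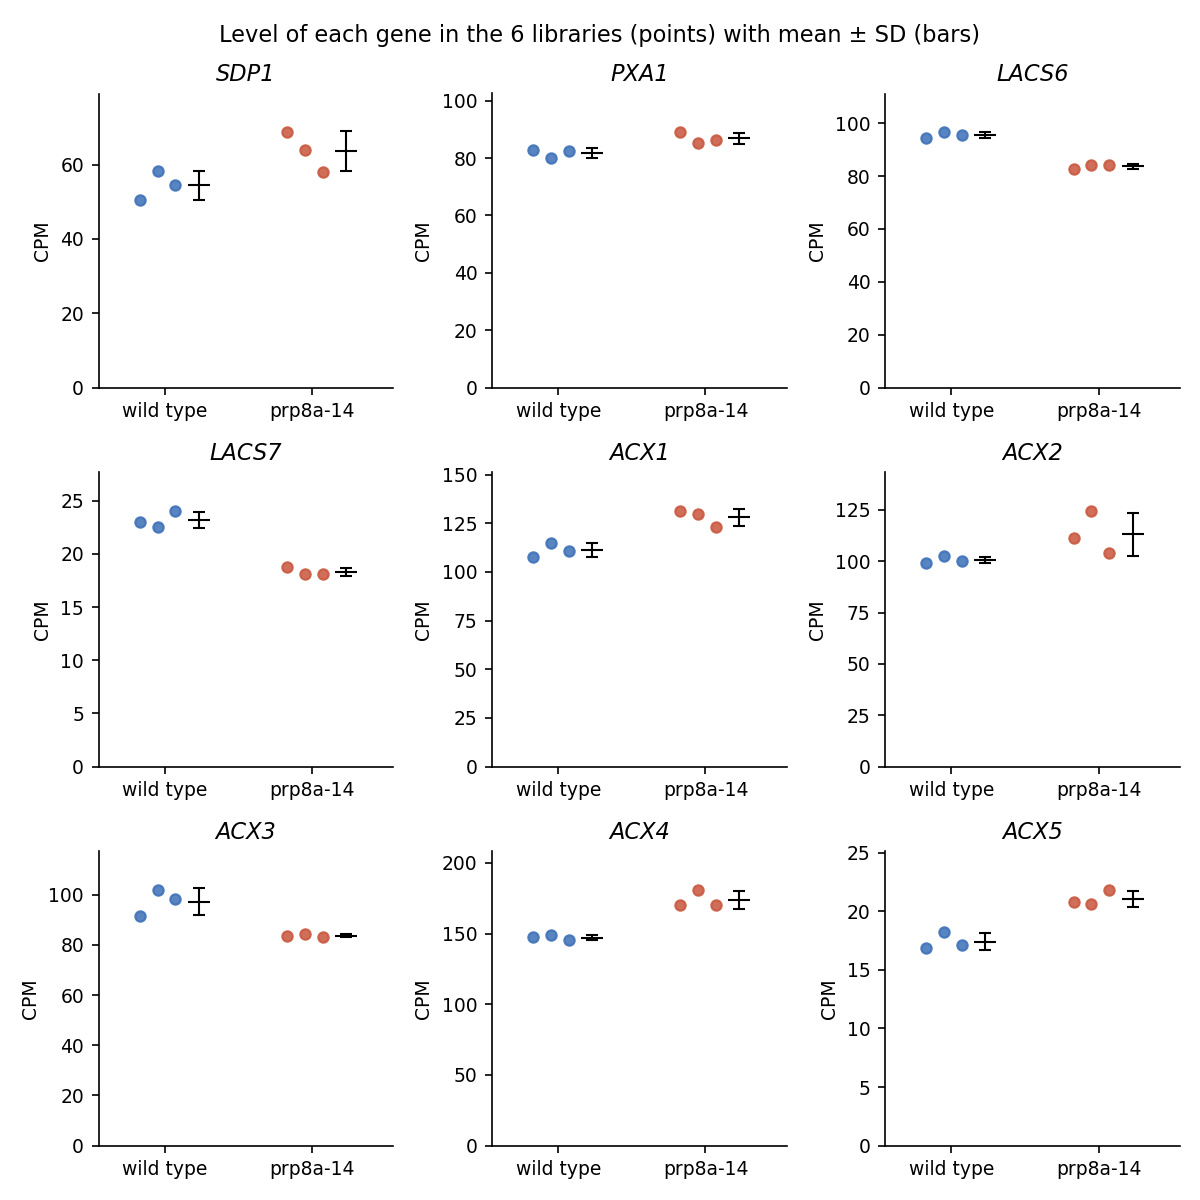
Level of each gene in CPM (vertical axes, each from 0) in the 3 wild type and 3 prp8a-14 libraries; points are libraries in the order of their numbers and bars are mean ± SD. Wild type points lie wholly above mutant points for LACS6, LACS7 and ACX3, wholly below them for PXA1, ACX1, ACX2, ACX4 and ACX5, and overlap for SDP1.

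Of the entry genes, SDP1 was higher in the mutant on average but with overlapping groups. Wild type replicates 1 to 3 held 50.4, 58.3 and 54.5 CPM, and mutant replicates 4 to 6 held 68.8, 64.0 and 58.1 CPM. Mutant replicate 6 thus lay just under wild type replicate 2. The log2 change was 0.23 (SE 0.0677; limma, adjusted p = 0.023), and it was not called without mutant replicate 4 (0.17, adjusted p = 0.077) or 5 (0.22, adjusted p = 0.067), without wild type replicate 1 (0.17, adjusted p = 0.092) or 3 (0.23, adjusted p = 0.051), in limma without a variance trend (adjusted p = 0.093) and with library totals as the scale (0.13, adjusted p = 0.13). PXA1 held 83.0, 79.9 and 82.4 CPM in the wild type libraries against 89.1, 85.4 and 86.2 CPM in the mutant, so every mutant library was above every wild type library by a small margin. Its log2 change of 0.09 (95% interval -0.00074 to 0.18; limma, adjusted p = 0.11) did not pass, and it was -0.0079 with library totals. A rise of more than 0.18 lies outside that interval.

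The synthetase genes were both lower in the mutant. LACS6 stood at 94.2, 96.7 and 95.6 CPM in wild type against 82.7, 84.2 and 84.1 CPM in prp8a-14, 3 tight values in each genotype with a clear gap between them. Its log2 change was -0.19 (SE 0.0380; limma, adjusted p = 0.0023), and its level fell by 12.4%. LACS7, the less abundant of the pair, stood at 23.0, 22.5 and 24.0 CPM and at 18.8, 18.1 and 18.1 CPM. It changed by -0.34 (SE 0.0574; limma, adjusted p = 0.00081) and dropped by 21.0%, and all mutant libraries lay below all wild type libraries. LACS6 and LACS7 overlap in function, and loss of both blocks the use of seed oil.

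Among the oxidase genes ACX4, of the short-chain oxidase, had the highest level and rose. It held 147.3, 148.8 and 145.2 CPM in wild type against 170.2, 180.9 and 170.2 CPM in the mutant, with a log2 change of 0.24 (SE 0.0402; limma, adjusted p = 0.00076). ACX3, whose enzyme prefers medium-chain acyl-CoA, went the other way: it stood at 91.3, 101.9 and 98.2 CPM in wild type against 83.6, 84.4 and 83.0 CPM in prp8a-14 (log2 change -0.21, SE 0.0463; limma, adjusted p = 0.0040). The 3 mutant values were nearly equal, and the wild type values were spread more widely above them.

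ACX1 and ACX5 encode closely related oxidases that take part in jasmonate synthesis, and ACX1 acts on medium- to long-chain substrates. ACX1 stood at 107.9, 114.8 and 110.9 CPM in wild type against 131.4, 129.7 and 123.1 CPM in the mutant, without overlap (log2 change 0.20, SE 0.0428; limma, adjusted p = 0.0033). With library totals its change was 0.11 (adjusted p = 0.051) and the call was lost. ACX5, far less abundant, stood at 16.8, 18.3 and 17.1 CPM and at 20.8, 20.6 and 21.8 CPM (log2 change 0.27, SE 0.0615; limma, adjusted p = 0.0048). Reads that the similar ACX1 and ACX5 sequences share could have been split between them in the authors' counting, so their single values are uncertain.

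ACX2, of the long-chain oxidase, had the least secure rise. It held 99.2, 102.3 and 100.2 CPM in wild type against 111.0, 124.5 and 104.0 CPM in prp8a-14, and replicate 6 lay only just above the wild type range while replicate 5 stood highest. The log2 change was 0.17 (SE 0.0583; limma, adjusted p = 0.044). It was 0.10 without mutant replicate 5 (adjusted p = 0.17), and the call was also lost without mutant replicate 4 (adjusted p = 0.059), without wild type replicate 1 (adjusted p = 0.11), 2 (adjusted p = 0.076) or 3 (adjusted p = 0.10), with quantile normalization, in limma without trend and with library totals. In the authors' deposited table its log2 change was 0.20 with an adjusted p of 0.012.

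**Figure D2:**
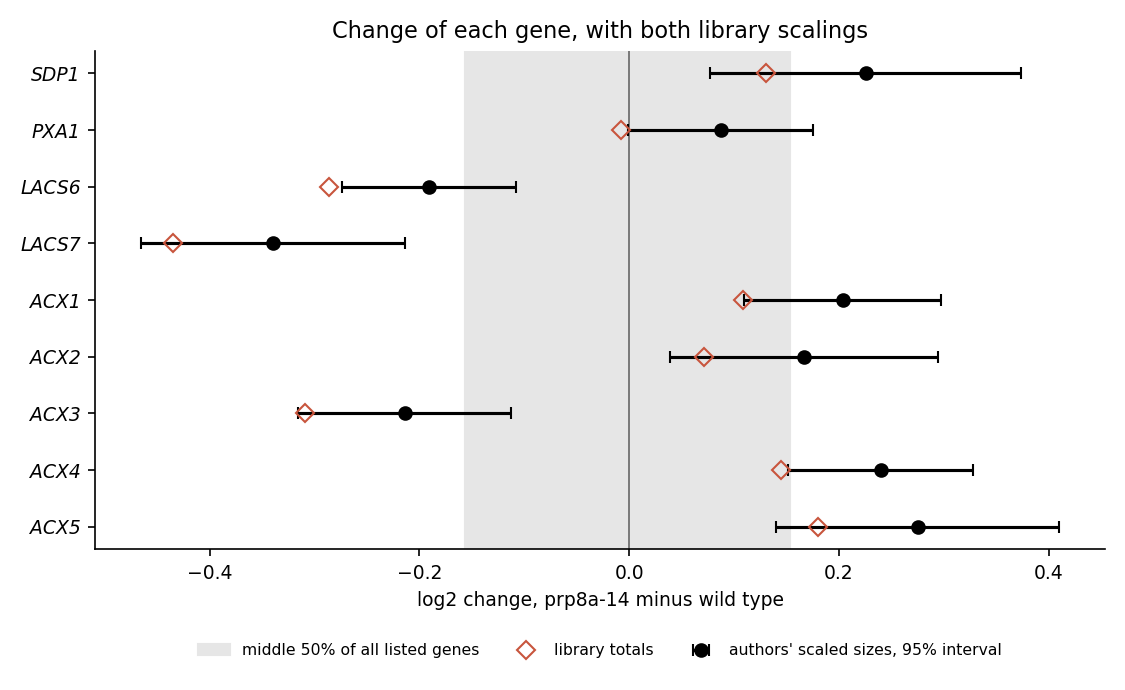
Log2 change of each gene, prp8a-14 minus wild type (horizontal axis); filled points with bars are the estimates with the authors' scaled library sizes and their 95% intervals, open diamonds the estimates with library totals, and the shaded band holds the middle 50% of all listed genes (-0.16 to 0.15). The diamonds sit to the left of the points for all 9 genes, and LACS6, LACS7 and ACX3 stay on the negative side with either scaling.

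The scale of the libraries bore on every rise. The authors' scaled sizes were 1.02 to 1.04 times the library totals in wild type but 0.951 to 0.982 times the totals in the mutant. With the totals, the median over all 19807 genes was -0.09, 2 of the 9 genes rose (ACX4 and ACX5) and the same 3 fell, LACS6 by 0.29, LACS7 by 0.43 and ACX3 by 0.31.

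Ratios between genes of 1 library do not depend on that scale, and 6 pairs were compared by an exact two-sided permutation test, for which 3 libraries against 3 cannot give a p under 0.1. The ratio of ACX3 to ACX4 counts was 0.620, 0.684 and 0.676 in wild type and 0.491, 0.467 and 0.487 in the mutant, without overlap (difference in log2 ratio -0.45, exact p = 0.1, BH over the pairs 0.15). ACX2 to ACX3 moved from 1.09, 1.00 and 1.02 to 1.33, 1.47 and 1.25 (difference 0.38, exact p = 0.1, BH 0.15). Counts of ACX2 were above those of ACX3 in every library of both genotypes, by less in each wild type library than in each mutant library. ACX2 and ACX4 lay wholly higher in the mutant and ACX3 wholly lower, so neither ratio could have overlapped. The same holds for PXA1 to LACS7 below, and these ratios restate the changes of the single genes.

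PXA1 to LACS7 went from 3.60, 3.55 and 3.43 to 4.75, 4.70 and 4.76 (difference in log2 ratio 0.43, exact p = 0.1, BH 0.15), with 3 almost equal mutant values. LACS6 to LACS7 went from 4.09, 4.29 and 3.97 to 4.41, 4.64 and 4.65 (difference 0.15, exact p = 0.1, BH 0.15), so LACS7 fell further than LACS6 in every mutant library set against every wild type library. The ratios of ACX1 to ACX5 (difference -0.07, exact p = 0.3, BH 0.30) and of SDP1 to PXA1 (difference 0.14, exact p = 0.2, BH 0.24) had overlapping groups.

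Taken as shares of the summed level of the 5 oxidase genes per transcript length, the makeup of the family shifted away from ACX3. ACX3 made up 18.2%, 19.4% and 19.2% in wild type and 14.9%, 14.3% and 15.1% in the mutant, and dropped by 4.15 percentage points (exact permutation p = 0.1, the smallest possible; BH over 5 genes 0.125). In CPM, ACX3 lay wholly lower in the mutant and the other oxidase genes wholly higher, so its share could not have overlapped. The drop in share thus restates the changes of the single genes. ACX4 made up 38.2%, 36.8% and 37.0% against 39.4%, 40.0% and 40.4%. The share of ACX1 was 21.0% ± 0.166 (SD, n = 3) against 21.9% ± 0.652 (SD, n = 3), without overlap. That of ACX5 was 3.55% ± 0.0707 against 3.89% ± 0.254, also without overlap, and that of ACX2 was 19.1% ± 0.146 against 19.5% ± 1.08, with overlap. The summed level per length was 199.3, 208.7 and 202.6 CPM per kb in wild type and 223.3, 233.6 and 217.5 CPM per kb in prp8a-14 with the authors' scaling. With library totals as the scale, the groups overlap in this sum.

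**Figure D3:**
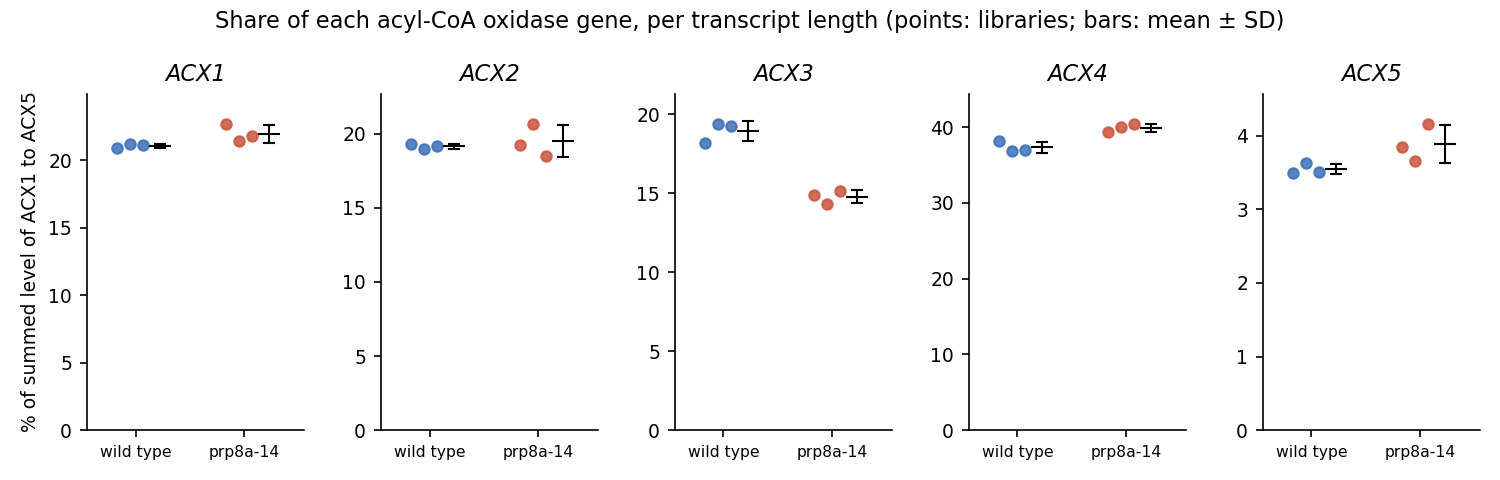
Share of each oxidase gene in the summed level of ACX1 to ACX5, in percent of CPM per kb of transcript (vertical axes, each from 0), for the 3 wild type and 3 prp8a-14 libraries; points are libraries, bars mean ± SD. ACX3 lies between 18.2% and 19.4% in wild type but between 14.3% and 15.1% in the mutant, ACX4 is higher in each mutant library, and ACX2 overlaps.

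Per transcript length (RefSeq annotation of TAIR10.1, longest transcript), the level spanned 10.5-fold from the highest to the lowest of the 9 genes in wild type and 12.0-fold in the mutant. In wild type ACX4 stood first at 75.95 CPM per kb ± 0.953 (SD, n = 3), followed by ACX1 at 42.8 ± 1.32. ACX2 (38.96 ± 0.617), ACX3 (38.6 ± 2.13) and LACS6 (38.5 ± 0.496) came next and overlapped in that order. SDP1 (16.5 ± 1.20) and PXA1 (15.5 ± 0.306) overlapped as well, and LACS7 (9.45 ± 0.317) and ACX5 (7.22 ± 0.312) stood lowest, apart from each other.

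In prp8a-14 the order changed in a pair of places. LACS6 (33.8 CPM per kb ± 0.339, SD, n = 3) now stood above ACX3 (33.2 ± 0.283), with overlapping ranges, and ACX5 (8.73 ± 0.277) stood above LACS7 (7.46 ± 0.155), without overlap. The ratio of ACX5 to LACS7 per length, picked out after its values were seen, was 0.726 to 0.826 in wild type, but 1.13 to 1.23 in the mutant. ACX1 and ACX2 overlapped in the mutant, at 49.3 ± 1.70 and 43.8 ± 4.04, whereas in wild type they did not.

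**Figure D4:**
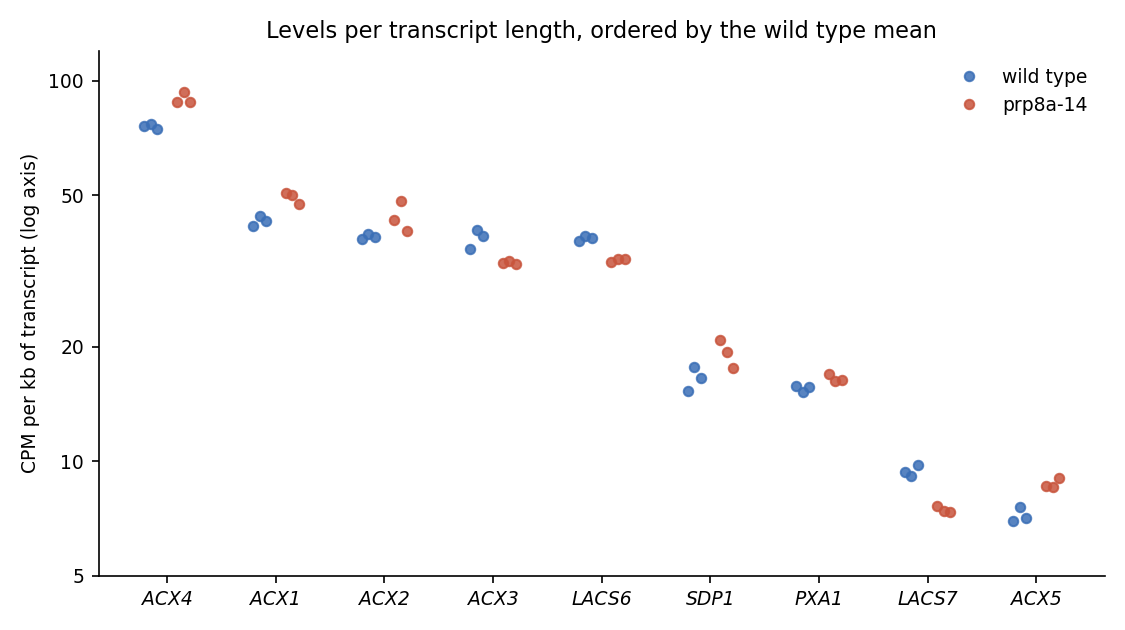
Level of the 9 genes in CPM per kb of transcript (vertical log axis), ordered by the wild type mean; points are libraries of wild type and of prp8a-14. ACX4 stands highest in both genotypes, and LACS7 and ACX5 exchange places at the low end.

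The genes also differ in structure. In the same annotation the 3 genes that fell have 13 exons (ACX3) and 23 exons (LACS6 and LACS7), and the 5 that rose have 4 (SDP1), 7 (ACX2), 11 (ACX5), 13 (ACX4) and 14 (ACX1). PXA1, which was not called, has the most, 25. ACX3 and ACX4 have equal exon numbers and moved in opposite directions, and the median of all listed genes was 4 exons. Any part of exon number in the changes was not tested. Gene-level counts hold no information on which introns were retained, so splicing of these transcripts was not analysed here.

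The rest of the pathway was read in the same fit: of 39 measured of 40 listed, 6 rose and 5 fell (28.2%, beside 35.2% of all genes), with a median log2 change of -0.01. In limma 0 of 6 synthetase genes outside the peroxisomal pair was called, with changes between -0.11 and 0.05; 1 had an unadjusted p under 0.05, voom called 0, and with library totals 3 fell. Of 10 genes of later steps of beta-oxidation and its auxiliary enzymes 1 rose and 1 fell. KAT2, the main thiolase of seedlings, stood at 235.4, 234.5 and 238.4 CPM in wild type against 315.7, 307.0 and 309.4 CPM in the mutant (log2 change 0.40; limma, adjusted p = 1.2e-05). MFP2, a multifunctional protein of the middle steps, fell by 0.15 (limma, adjusted p = 0.010).

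Relatives of the oxidases moved apart. ACX6, the gene next to ACX3 in the genome and similar to it, was at 2.76, 4.30 and 3.91 CPM in wild type against 2.30, 1.61 and 2.08 CPM in prp8a-14 (log2 change -0.86; limma, adjusted p = 0.0061). Both neighbours were thus lower in the mutant. Reads that their similar sequences share could have been split between them, so the ACX6 value is uncertain. Per length ACX3 exceeded ACX6 by 22.1 to 30.8 times in wild type and 33.9 to 48.9 times in the mutant. That ratio, too, was picked out after its values were seen. IBR3, an acyl-CoA dehydrogenase-like gene needed for the response to indole-3-butyric acid, rose from 47.4, 46.6 and 44.3 CPM to 59.7, 57.3 and 55.2 CPM (log2 change 0.32; limma, adjusted p = 0.00038).

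Of 10 genes for cofactors, carriers and catalases, the peroxisomal malate dehydrogenase genes went opposite ways, PMDH1 with a log2 change of -0.17 (limma, adjusted p = 0.0052) and PMDH2 with 0.22 (adjusted p = 0.0071; 0.10 and adjusted p = 0.17 with quantile normalization). CAT1, a catalase gene, rose by 0.14 (limma, adjusted p = 0.047) and was no longer called when any library other than mutant replicate 6 was left out, nor with voom, quantile normalization, limma without trend or library totals. Before the oxidases in jasmonate synthesis, the reductase gene OPR3 fell from 30.2, 28.9 and 29.6 CPM to 21.8, 21.4 and 24.5 CPM (log2 change -0.39; limma, adjusted p = 0.00051). OPCL1, the gene of a peroxisomal ligase of the same pathway, had a change of 0.14 that did not pass (adjusted p = 0.12), or 0.20 and adjusted p = 0.026 without mutant replicate 4.

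The import receptor genes of peroxisomal enzymes had changes that did not pass, 0.13 for PEX5 (limma, adjusted p = 0.052) and 0.21 for PEX7 (adjusted p = 0.064). Each had an unadjusted p under 0.05, and voom called 0 of the 2. PEX5 passed without mutant replicate 6 (0.16, adjusted p = 0.022) and among genes with at least 5 CPM on average (adjusted p = 0.048), and PEX7 without wild type replicate 2 (0.30, adjusted p = 0.011). Of 7 lipase, oil body and triacylglycerol synthesis genes 2 rose and 1 fell (42.9%, beside 35.2% of all genes). The oleosin genes OLE1 and OLE2 rose from under 1 CPM (1.09 and 1.57; limma, adjusted p = 0.038 and 0.049), with overlapping groups, and are also among the seed markers. OLE1 was no longer called without mutant replicate 4 or 5, without wild type replicate 1 or 3, and in limma without trend. OLE2 stayed called only when the library left out was wild type replicate 2, and was not called with either pseudocount, with library totals or in limma without trend. DGAT1, an enzyme of triacylglycerol synthesis, fell by 0.16 (limma, adjusted p = 0.029) and stayed called only when the library left out was mutant replicate 4.

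**Figure D5:**
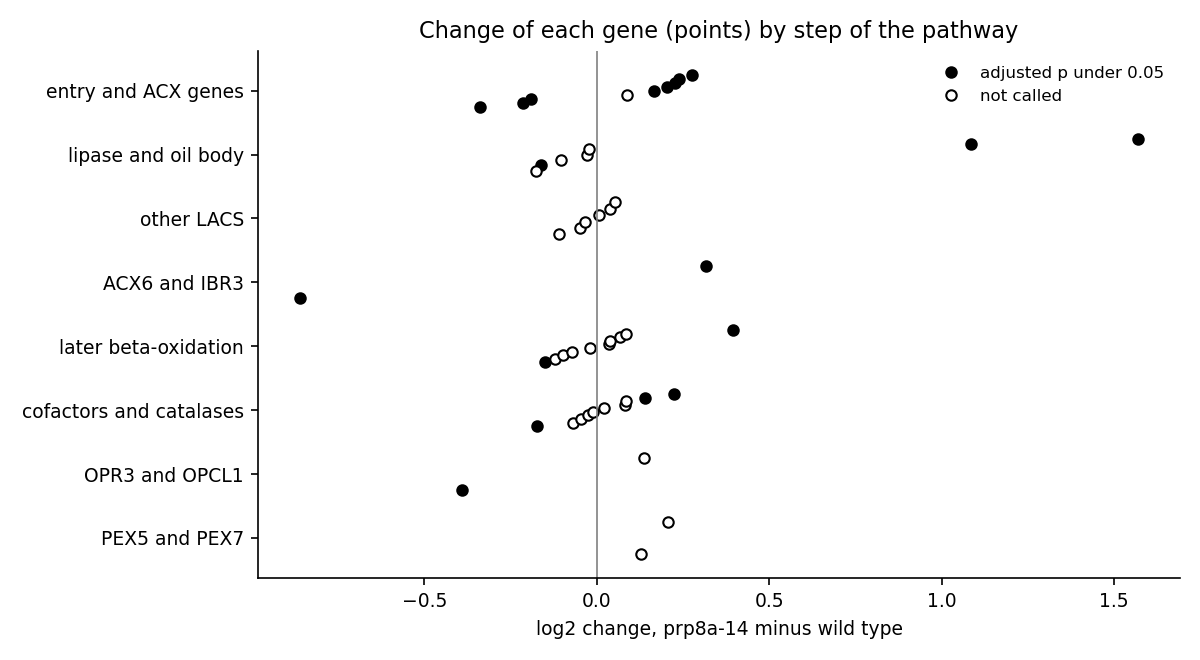
Log2 change of each gene, prp8a-14 minus wild type (horizontal axis), by step of the pathway (vertical axis); filled points had an adjusted p under 0.05 in limma and open points did not. The top row holds 8 filled points of 9 on both sides of 0, and the row of the other synthetases holds none.

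Genes with profiles near those of the 9 were sought. Likeness was measured as the root mean square difference of log2 values, each centred on its mean over the 6 libraries, among 9352 named genes averaging 5 CPM or more. The nearest genes were KASI to PXA1 (0.0059), RIBA2 to LACS6 (0.011), HUA1 to ACX4 (0.012), NPF5.11 to ACX3 (0.016), PUB7 to ACX1 (0.017), GAMMACA2 to LACS7 (0.019), UNE16 to ACX2 (0.020), MEE29 to ACX5 (0.026) and KIN8A to SDP1 (0.034). From 780 genes (SDP1) to 4024 genes (PXA1) lay within 0.1 of a member, and LACS7 had 880. That limit is similar in size to the smaller log2 changes, such as that of PXA1 (0.09). A gene with no change can thus lie within it, and the counts do not show how many genes shared a profile.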

How the data were processed

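Poly-A RNA of 6 libraries was measured by sequencing, per the labels' protocols. Per the submitters' processing notes, the tools included STAR 2.5.1a, featureCounts 1.4.6-p5 of Subread, limma, edgeR, Salmon 0.8.2 and bcl2fastq, whose roles are not stated. The sources used here do not give the build, annotation or strand setting, so genes that overlap others are uncertain. The deposited values are log2 of CPM relative to the authors' scaled library sizes, with 0.5 counts added; whole counts came back from 100% of them (tolerance 0.1). Repeated lines of a gene (272 of 20079) had equal values and were used once. Another 3 columns matched no sample and were not used. The authors' scaled library sizes, on which all CPM values and main log2 changes given here rest, may have been set with them, as may the authors' own fit, whose deposited log2 fold changes and adjusted p-values are named where printed.

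All 19807 genes were fitted in limma 3.58.1 (R 4.3.3) with a variance trend, two-sided, BH-adjusted, called under 0.05, and tested on simulated data. Alternatives were library totals, genes averaging 5 CPM or more, quantile normalization, no trend, pseudocounts of 0.1 and 1 CPM, voom on the recovered counts, and each library left out. Permutations and figures used Python 3.11.15, scipy 1.17.1 and matplotlib 3.10.9. Exon numbers and lengths came from RefSeq TAIR10.1 (all 9 genes matched). The named genes were the 9, called genes of the pathway lists with an absolute change of at least 0.3 or in lists of 2, and the nearest profiles; MFP2, PMDH1, PMDH2, CAT1 and DGAT1 were named after their values were seen. Members and lists were chosen with earlier results of these data known.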

Additional observations from a re-analysis of the deposited data

How the results depend on the processing

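Under 13 alternatives, 101 of 117 changes of the 9 genes kept their direction and side of the threshold, and 15 lost their call. LACS6, LACS7, ACX3, ACX4 and ACX5 kept theirs in all 13. With library totals 5 genes were called and 2 rose, the median was 0.071, SDP1, ACX1 and ACX2 changed by 0.13, 0.11 and 0.071 with no call, and PXA1 was at -0.0079. In limma without trend 3 rose, and SDP1 (0.23) and ACX2 (0.17) lost their calls, as did ACX2 with quantile normalization (0.12). That normalization put the PXA1 to LACS7 ratio at 0.38. With a library left out, 6 to 8 of the 9 were called, 3 to 5 rose and 3 fell; the median ran from 0.10 to 0.23, SDP1 from 0.17 to 0.29 and ACX2 from 0.10 to 0.23. Of the other pathway genes 3 rose in limma without trend and 3 to 6 with a library left out, and 11 fell with library totals and 9 with quantile normalization. The count over all genes ran from 5405 to 7964, against 6977. Causes of the lost calls were not tested. No paired analysis was made because the labels give no pairing of libraries between the genotypes. With 3 libraries against 3, exact tests of ratios and shares could not pass 0.05.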
